A study of Mus musculus with 6 samples.

Results

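Poly(A) RNA of growth plate cartilage was compared between E18.5 mouse embryos in which the RNA-binding protein Hnrnpk had been removed from chondrocytes (CKO, 3 libraries) and their controls (WT, 3 libraries), and the 10 genes described here are CCN genes (Ctgf, Cyr61, Nov and Wisp1), the coactivators Yap1 and Wwtr1, their DNA-binding partners Tead1 and Tead2, and the target genes Ankrd1 and Amotl2. They were found by symbol among the 15803 genes of the deposited table, and all 10 were in it. By the methods of the study both groups carried Hnrnpk fl/fl alleles, with loxP sites around several exons, and CKO embryos carried Col2a1-Cre in addition, so the deletion is restricted to cells that use the Col2a1 promoter and their descendants, and a whole growth plate also holds cells without it. Embryos of both sexes were used and littermates were compared. The labels do not say whether a library came from 1 embryo or from several, or that libraries of a group came from separate embryos, so p-values measure the spread between these libraries, which may be technical.

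The CCN genes encode secreted proteins that sit in the matrix and bind integrins, heparan sulphate and growth factors, and in the growth plate they are known from chondrocytes, where loss of Ctgf disturbs cartilage growth. Yap1 and Wwtr1, which encodes TAZ, are the coactivators at the end of the Hippo pathway: when the Lats kinases phosphorylate them they are held in the cytoplasm, and otherwise they enter the nucleus and switch on genes through the TEAD proteins. Ctgf, Cyr61, Ankrd1 and Amotl2 are widely used as readouts of YAP and TEAD, and Nov and Wisp1 are CCN genes that are more often linked to other signals, Wisp1 to Wnt.

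Values are CPM, the reads of a gene scaled to a total of 1000000 reads assigned to genes in each library. Each library held between 1153871 and 1454094 assigned reads, so that 1 read was worth 0.688 to 0.867 CPM. Hnrnpk itself lay between 842 and 955 CPM in WT and between 759 and 949.9 CPM in CKO (log2 fold change -0.14, limma's adjusted p = 0.622). Reads were summed over the gene, and the deleted exons were not analysed on their own, so this level does not check the labels. CKO 2 stood apart from the other libraries labelled CKO: its mean correlation with its own group was 0.908, against 0.936 to 0.957 for the other 5 libraries. Chondrocyte markers were present in every library, with a summed level of 5677 to 8178 CPM in WT and 2749 to 3647 CPM in CKO. Endothelial markers did not exceed 3 reads for any gene in any library.

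The promoters of 6 of the 10 genes were matched in RefSeq (build GRCm38.p6, from 250 bases before to 50 bases after the start site), those of Cyr61, Amotl2, Ankrd1, Yap1, Wwtr1 and Tead2. The core of the TEAD site, GGAATG, or CATTCC on the other strand, was found in 5 of these 6 genes and not in that of Tead2, and it was present in 14.7% of 32851 RefSeq windows of the same length and in 16.6% of 27025 genes. Below are the windows of Cyr61 (chr3:145649936-145650235, minus strand), Amotl2 (chr9:102717554-102717853, plus strand) and Ankrd1 (chr19:36119795-36120094, minus strand). They are shown because all are textbook YAP and TEAD targets that hold the same letters close to the start, while their levels in these libraries differ widely. Each is written 5′ to 3′ in the direction of its gene, with the TEAD core in capitals.
Cyr61: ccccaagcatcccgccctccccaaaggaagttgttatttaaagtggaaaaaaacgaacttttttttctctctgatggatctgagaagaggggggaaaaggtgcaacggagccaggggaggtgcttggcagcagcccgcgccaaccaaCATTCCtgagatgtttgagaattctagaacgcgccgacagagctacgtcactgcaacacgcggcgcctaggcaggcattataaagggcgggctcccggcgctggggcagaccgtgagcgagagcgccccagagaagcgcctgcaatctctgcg
Amotl2: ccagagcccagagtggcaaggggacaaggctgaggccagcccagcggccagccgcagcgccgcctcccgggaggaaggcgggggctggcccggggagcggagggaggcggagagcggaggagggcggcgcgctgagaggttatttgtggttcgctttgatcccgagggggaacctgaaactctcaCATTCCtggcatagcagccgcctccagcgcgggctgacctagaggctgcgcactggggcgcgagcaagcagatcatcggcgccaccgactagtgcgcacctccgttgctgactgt
Ankrd1: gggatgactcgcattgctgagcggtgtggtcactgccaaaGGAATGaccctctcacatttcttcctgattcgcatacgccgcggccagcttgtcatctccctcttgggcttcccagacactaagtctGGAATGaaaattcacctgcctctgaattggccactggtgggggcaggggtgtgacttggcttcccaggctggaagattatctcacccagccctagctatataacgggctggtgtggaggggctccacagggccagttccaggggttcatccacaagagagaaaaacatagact

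Counted from the start site, with negative positions upstream, the core began at -103 in Cyr61 and at -65 in Amotl2, in both on the strand opposite to the gene. Ankrd1 held it at -210 and again at -123, in the direction of the gene. In Yap1 it began at -141 and in the first of the RefSeq windows of Wwtr1 at -136. Neither the AP-1 motif TGANTCA, which 7.81% of all windows held, nor the CArG box of serum response factor, which 1.63% held, was found in any of these windows. A match describes letters and not a bound site, and the absence of a match says only that these letters are not in this stretch.

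**Figure D1:**
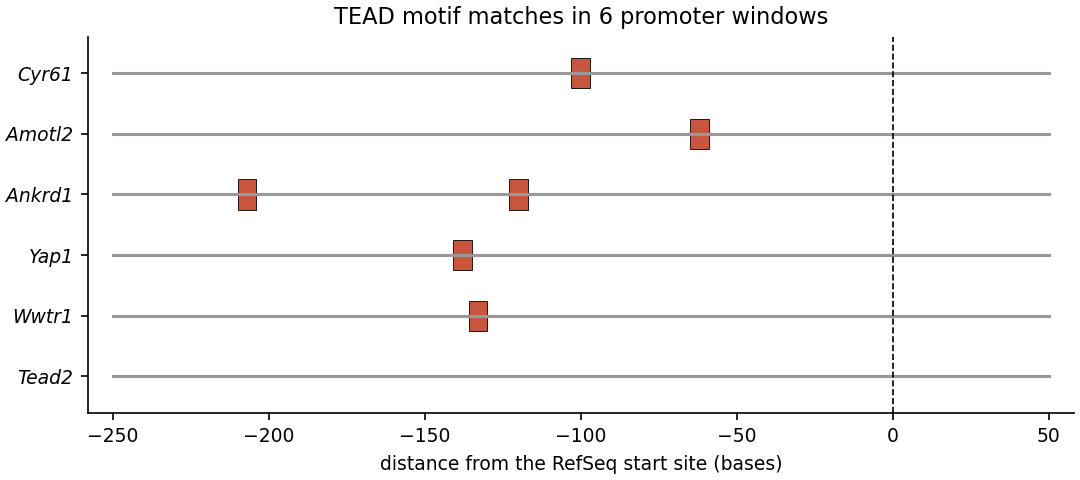
Position of the TEAD core (red boxes) in the RefSeq windows of 6 genes, with distance from the start site in bases on the horizontal axis and the start site as a dashed line. Cyr61, Amotl2, Yap1 and Wwtr1 have 1 match each and Ankrd1 has 2, all upstream of the start, and Tead2 has none.

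Of the 10 genes, 9 averaged 1 CPM or more and were tested, and only Cyr61 passed limma's adjusted threshold of 0.05. Across all 12155 genes tested 5.78% passed it (3.18% higher and 2.6% lower in CKO), so that 1 of 9 is near the background. An unadjusted p under 0.05 was found for 4 of the 9 genes, Cyr61, Ctgf, Yap1 and Nov, and for 21.3% of all genes. The edgeR quasi-likelihood test called 2 of the 9, Cyr61 and Nov, when it called 9.57% of the genes it tested, and DESeq2 called 1. Of the 9 genes 7 had a positive and 2 a negative log2 fold change, against 50.8% positive among all genes, and their median was 0.23, against 0.01 over all genes. The members were chosen with earlier results of these data known, so counts among them are no independent evidence. The libraries of the genotypes did not overlap in 2 genes that were higher in CKO, Cyr61 and Yap1 (background 14.5%), and in 1 that was lower, Nov (background 13.2%). In tissue RNA a change in the number of cells of a type and a change in RNA per cell cannot be told apart.

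**Figure D2:**
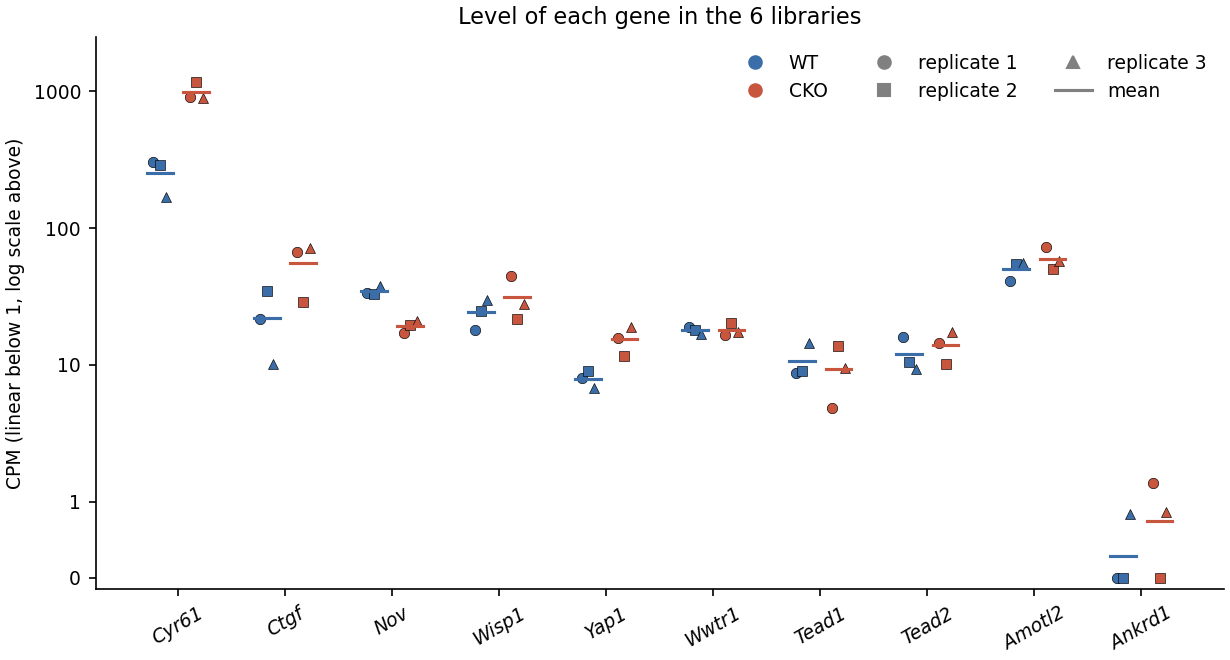
CPM of each of the 10 genes (vertical axis, linear below 1 and on a log scale above) in the 3 WT libraries (blue) and the 3 CKO libraries (red), with the replicate number as the shape of the point and the group mean as a line. Cyr61 stands above every other gene in both genotypes, with 168 to 304 CPM in WT and 886 to 1161 CPM in CKO, Nov lies lower in every CKO library, and Ctgf of CKO 2 lies among the WT values.

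Cyr61 (ENSMUSG00000028195, chr3:145646976-145649981 of GRCm38, minus strand) encodes CCN1, a secreted protein that binds integrins and acts on cell adhesion and chondrogenesis. Its level was 304, 289.7 and 168 CPM in the 3 WT libraries (replicates 1, 2 and 3, here and below) against 908.5, 1161 and 886 CPM in the 3 CKO libraries. The lowest CKO library lay above the highest WT library, and CKO 2, which was low for several genes described here, had the highest level of Cyr61. The mean rose from 254 ± 74.8 CPM (SD, n = 3) to 985 ± 153 CPM (SD, n = 3), a 3.88-fold difference of the means. The log2 fold change was 1.99 (SE 0.23, 95% interval 1.48 to 2.49, limma's adjusted p = 0.00159), which placed the gene 119th from the highest of 12155. With between 199 and 1609 reads per library, Cyr61 was the member measured most precisely: counting error alone would give a coefficient of variation of 5.46% in WT, where 29.4% was measured. It passed the threshold in all 13 alternative settings, at a log2 fold change between 1.72 and 2.14.

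Ctgf (ENSMUSG00000019997, chr10:24595442-24598683, plus strand) encodes CCN2, which is known as a target of YAP and of TGF-beta and is needed for normal growth plate cartilage. It had 21.7, 34.5 and 10.1 CPM in the 3 WT libraries against 66.7, 28.9 and 71.9 CPM in the 3 CKO libraries. CKO 1 and CKO 3 lay above all WT libraries, whereas CKO 2 lay within the WT range. The 40 reads of CKO 2 gave an exact Poisson 95% interval of 20.6 to 39.3 CPM, which covers counting error only and lies below those of CKO 1 (54.1 to 81.4 CPM) and CKO 3 (57.3 to 89.2 CPM). The means were 22.1 ± 12.2 CPM and 55.8 ± 23.5 CPM (SD, n = 3 each), 2.52-fold apart, and the log2 fold change of 1.35 (SE 0.45, 95% interval 0.36 to 2.33) did not pass the threshold (limma's adjusted p = 0.112). The criterion of the study, a log2 fold change beyond 1 in either direction with an unadjusted p under 0.05, was met by Ctgf and Cyr61, 2 of 9 genes, and by 10.4% of all genes tested. Without CKO 2 the log2 fold change of Ctgf was 1.76 (limma's adjusted p = 0.0191). The WT libraries also spread widely, with a coefficient of variation of 55.1% where counting error gives 18.5%. An antisense transcript, Gm15270, shares 665 exon bases with Ctgf and is not among the genes of the table, and since the strand setting of the counting is not given in the sources used here, reads of the pair cannot be told apart.

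Nov (ENSMUSG00000037362, chr15:54745702-54754039, plus strand) encodes CCN3, which is often described as opposing CCN2 in cartilage and bone cells. Its level was 33.3, 33.0 and 38.0 CPM in the 3 WT libraries against 17.2, 19.5 and 20.8 CPM in the 3 CKO libraries. Every CKO library lay below every WT library, and the spread within each group was small: the coefficients of variation of 8.04% in WT and 9.53% in CKO were under the 14.9% and 19.9% that counting error alone would give. The means were 34.8 ± 2.80 CPM and 19.2 ± 1.83 CPM (SD, n = 3 each), and the log2 fold change of -0.83 (SE 0.23, 95% interval -1.33 to -0.33) narrowly missed the threshold (limma's adjusted p = 0.0594). It passed in 2 of 13 alternative settings, edgeR's quasi-likelihood test on the recovered reads (log2 fold change -0.90, adjusted p = 0.0403) and the fit without CKO 2 (-0.84, limma's adjusted p = 0.0437).

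Wisp1 (ENSMUSG00000005124, chr15:66891320-66923201, plus strand) encodes CCN4, a Wnt-induced protein found in bone-forming cells. It had 18.1, 24.8 and 29.6 CPM in the 3 WT libraries against 44.7, 21.7 and 27.7 CPM in the 3 CKO libraries. A single library, CKO 1, lay above the WT range, and the other CKO libraries lay within it. The log2 fold change was 0.33 (SE 0.31, 95% interval -0.36 to 1.01, limma's adjusted p = 0.593).

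The remaining CCN genes, Wisp2 (CCN5) and Wisp3 (CCN6), were outside the 10 and did not pass the threshold either. Wisp2, whose protein lacks the C-terminal domain of the others, had 114, 129 and 104 CPM in the 3 WT libraries against 228, 12.99 and 203 CPM in the 3 CKO libraries. It was thus above the WT range in CKO 1 and CKO 3 and far below it in CKO 2, with a log2 fold change of -0.42 (SE 0.83, limma's adjusted p = 0.815) and of 0.89 without CKO 2 (limma's adjusted p = 0.00559). Wisp3 had 8.70, 10.5 and 10.98 CPM in the WT libraries and 5.50, 2.89 and 4.33 CPM in the CKO libraries, without overlap. These rest on only 12, 14 and 13 reads in WT and 8, 4 and 5 in CKO. The log2 fold change of Wisp3 was -1.10 (SE 0.36, limma's adjusted p = 0.110). In CKO 2 the summed level of 5 fibroblast and perichondrium markers was also lowest, at 1227 CPM, against 2471 to 2503 CPM in the other CKO libraries and 3238 to 5140 CPM in WT. Within that list Postn went the other way, with 30.3 CPM in CKO 2 against 11.7 and 6.07 CPM in CKO 1 and CKO 3. Some other markers were lower in CKO 2 than in CKO 1 and CKO 3 as well. Among them were the hypertrophic markers Mmp13 and Ibsp, with values given further on, and the osteoblast markers Bglap (2.89 CPM in CKO 2, 26.8 and 28.6 CPM in the others) and Alpl (8.66 CPM in CKO 2, 39.9 and 38.1 CPM in the others). Their lists did not move as a whole: Col10a1 was highest in CKO 2, at 45.5 CPM against 24.8 and 16.5 CPM in CKO 1 and CKO 3. Spp1 (11880 CPM in CKO 2, 11110 and 12040 CPM in the others), Sp7 (4.33, against 4.13 and 4.33 CPM) and Col1a1 (240, against 245 and 269 CPM) differed little. The 5 chondrocyte markers were each higher in CKO 2 than in CKO 1 and CKO 3, with a sum of 3647 CPM against 2749 and 2757 CPM. Among them were Col9a1 (457, against 274 and 282 CPM) and Sox9 (73.6, against 41.9 and 32.1 CPM), while Hapln1 differed little (891, against 837 and 869 CPM). The part of all these cells in the values of Wisp2 and Ctgf was not tested.

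Set per length as RPKM (CPM per kilobase of merged exons), Cyr61 held the largest share of the CCN transcripts in each of the 6 libraries. Its share of the summed RPKM of the 6 CCN genes was 63.1% in WT 1, 58.3% in WT 2 and 49.8% in WT 3, and 73.8% in CKO 1, 95.1% in CKO 2 and 75.05% in CKO 3. The groups did not overlap, and CKO 2 was the highest, with Wisp2 at 1.12% there, against 18.0% to 32.3% in the other 5 libraries. Nov held 4.68% to 7.93% of the sum in WT and 0.983% to 1.24% in CKO. This share also falls as Cyr61 rises, and the mean of Nov itself went from 34.8 to 19.2 CPM. The ratio of Cyr61 to Nov, both in RPKM, was 12.97, 12.5 and 6.28 in the WT libraries and 75.1, 84.7 and 60.5 in the CKO libraries. These shares and ratios rest on the same reads as the fold changes above and are a description without a test.

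**Figure D3:**
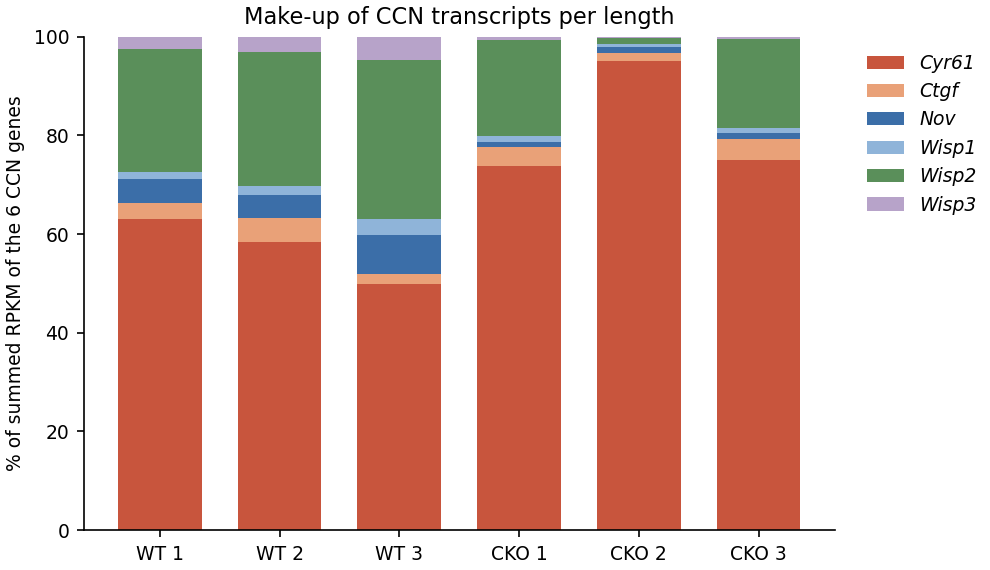
Share of each CCN gene in the summed RPKM of the 6 CCN genes (vertical axis, %) in each of the 6 libraries, as stacked bars that add up to the whole. Cyr61 holds 49.8% to 63.1% in WT and 73.8% to 95.1% in CKO, and Wisp2 nearly vanishes in CKO 2 alone.

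Yap1 (ENSMUSG00000053110, chr9:7931999-8004596, minus strand), the coactivator itself, had 7.97, 9.01 and 6.76 CPM in the 3 WT libraries against 15.8, 11.5 and 19.1 CPM in the 3 CKO libraries. All CKO libraries lay above all WT libraries, on 8 to 12 reads per WT library and 16 to 23 per CKO library. The log2 fold change of 0.87 (SE 0.32, 95% interval 0.16 to 1.57) did not pass the threshold (limma's adjusted p = 0.147), nor did it in any of the 13 alternative settings. An antisense transcript, Gm20416, shares 116 exon bases with Yap1.

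Wwtr1 (ENSMUSG00000027803, chr3:57455649-57575910, minus strand), which encodes TAZ, had 18.8, 18.0 and 16.9 CPM in the 3 WT libraries against 16.5, 20.2 and 17.3 CPM in the 3 CKO libraries. The ranges overlapped, and the log2 fold change was 0.00 (SE 0.25, 95% interval -0.55 to 0.56, limma's adjusted p = 0.995), so these libraries leave room for a change of about that interval either way. Per length, Wwtr1 was the more abundant of the coactivators in every library. The ratio of Yap1 to Wwtr1, both in RPKM, was 0.218, 0.258 and 0.207 in WT and 0.495, 0.295 and 0.568 in CKO. In reads they were close in CKO 1 (23 for Yap1, 24 for Wwtr1), and Yap1 was ahead in CKO 3 (22 against 20). The order there thus rests on the merged exon lengths, 9257 bases for Yap1 and 4779 for Wwtr1. The ratios of the genotypes did not overlap, and no test was made of them.

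The TEAD proteins bring the coactivators to DNA. Tead1 (ENSMUSG00000055320, chr7:112679318-112906807, plus strand) had 8.70, 9.01 and 14.4 CPM in the 3 WT libraries against 4.81, 13.7 and 9.53 CPM in the 3 CKO libraries. Tead2 (ENSMUSG00000030796, chr7:45215753-45233644, plus strand) had 15.9, 10.5 and 9.29 CPM in the 3 WT libraries against 14.4, 10.1 and 17.3 CPM in the 3 CKO libraries. Both overlapped between the genotypes, with log2 fold changes of -0.24 (SE 0.41, 95% interval -1.15 to 0.66, limma's adjusted p = 0.779) for Tead1 and 0.22 (SE 0.33, 95% interval -0.52 to 0.95, limma's adjusted p = 0.759) for Tead2. Set per length, Tead2 held 35.4% to 61.2% of the summed RPKM of the 4 TEAD genes in WT and 40.0% to 51.6% in CKO, and Tead1 held 11.8% to 19.3% and 6.07% to 19.2%. At 7 to 22 reads per library, these libraries leave room for changes within these intervals for Tead1 and Tead2. Tead2 shares 13 exon bases with Cd37 on the other strand.

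Amotl2 (ENSMUSG00000032531, chr9:102716672-102733418, plus strand) encodes an angiomotin that binds YAP and is itself a YAP target. It had 41.3, 54.8 and 55.8 CPM in the 3 WT libraries against 72.2, 49.8 and 57.2 CPM in the 3 CKO libraries. The ranges overlapped, with a log2 fold change of 0.23 (SE 0.22, 95% interval -0.26 to 0.72, limma's adjusted p = 0.595). The upper end of that interval lies under the lower end of the interval of Cyr61. Ankrd1 (ENSMUSG00000024803, chr19:36111961-36120099, minus strand), a muscle-enriched ankyrin repeat protein, had 0, 0 and 1 read in the WT libraries and 2, 0 and 1 in the CKO libraries. This is under the 3 reads per library taken as the floor (2.06 to 2.60 CPM), so no fold is given. Its mean of 0.51 CPM was below the 1 CPM required, so it was not tested in the main fit. Among other tissue markers, the 2 cardiac muscle markers in the table were also at most 0.845 CPM in sum in any library, and 8 skeletal muscle markers summed to 33.8 to 159 CPM in WT and 82.5 to 87.5 CPM in CKO.

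**Figure D4:**
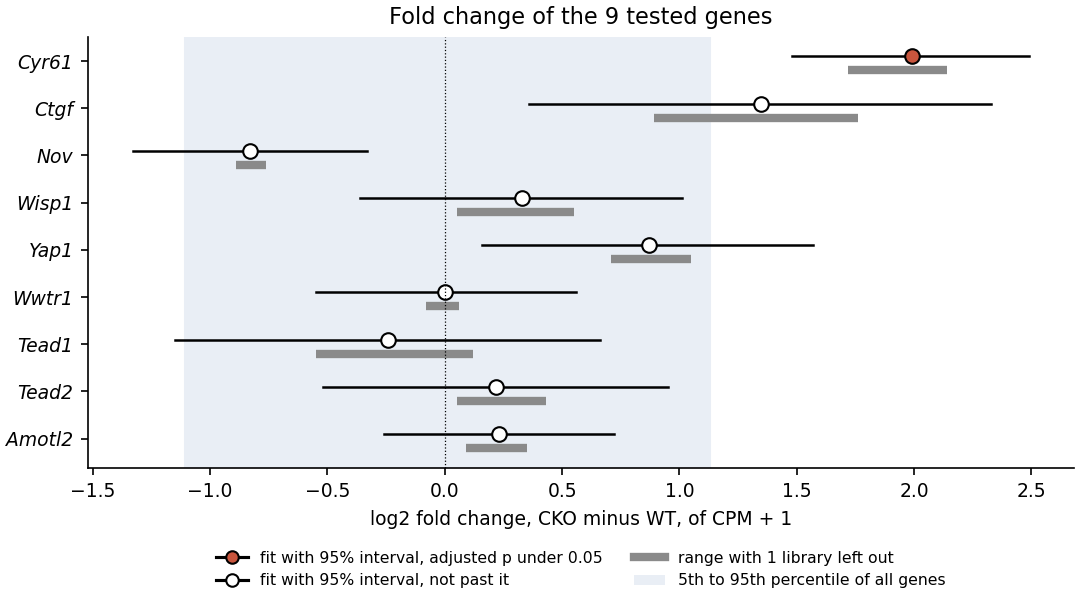
Log2 fold change (CKO minus WT, of CPM + 1, horizontal axis) of the 9 tested genes with its 95% interval (points and black lines) and the range when each library was left out in turn (grey bars), over the 5th to 95th percentile of all genes tested (shaded). Cyr61, filled red, is the gene past limma's adjusted threshold, at 1.99 with leave-out values from 1.72 to 2.14, while Ctgf spans 0.89 to 1.76 and the bars of Wwtr1 and Tead1 cross 0.

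Levels can be ranked across the genes only per length. The length used here is that of all annotated exons merged, and which transcripts were present was not examined, so the order depends on it. In WT the order of mean RPKM was Cyr61 at 126, Nov at 12.1, Amotl2 at 8.05, Ctgf at 7.74, Wisp1 at 4.34, Wwtr1 at 3.75, Tead2 at 2.49, Yap1 at 0.855, Tead1 at 0.788 and Ankrd1 at 0.0976. The libraries of Amotl2, Ctgf, Wisp1 and Wwtr1 overlapped from each gene to the next, as did those of Yap1 and Tead1, so these neighbours could not be ordered. In CKO the order was Cyr61 at 488, Ctgf at 19.5, Amotl2 at 9.50, Nov at 6.68, Wisp1 at 5.64, Wwtr1 at 3.77, Tead2 at 2.92, Yap1 at 1.67, Tead1 at 0.689 and Ankrd1 at 0.259. Nov thus stood 2 places lower in CKO than in WT and Ctgf 2 places higher, although the libraries of Ctgf and Amotl2 overlapped in both genotypes. Those of Ctgf and Nov overlapped in WT too, where Ctgf had 12.1 and Nov 11.5 RPKM in WT 2. In CKO the libraries of Nov, Wisp1, Wwtr1 and Tead2 overlapped from each gene to the next, as did those of Tead1 and Ankrd1, and those of Yap1 and Tead1 no longer did.

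The genes whose levels followed Cyr61 most closely over the 6 libraries, among 2883 genes that averaged 50 CPM or more, were Mettl6 (Pearson's r = 0.999), Snu13 (0.998), a protein of the U4/U6.U5 splicing particle, and Ccdc58 (0.998). For Amotl2 these were Lta4h (0.952), Tcf4 (0.950), a basic helix-loop-helix factor, and Phax (0.943), an export adaptor of small nuclear RNA. All values share the same 6 libraries, in which Cyr61 forms 2 separate groups by genotype, so these correlations are descriptions of the ranking only. Mettl6 itself spanned 45.6 to 52.2 CPM in WT and 65.0 to 70.7 CPM in CKO, a far smaller step than that of Cyr61.

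Other genes of the pathway were taken from lists compiled with earlier results of these data known, and their counts are therefore no independent evidence of a direction. Over all lists, each gene counted once, 45 genes were tested, of which 27 had a positive and 18 a negative log2 fold change, with a median of 0.23, and 2 passed limma's adjusted threshold, both higher in CKO. Among the 23 tested Hippo kinases and upstream regulators, 13 were positive and 10 negative, with a median of 0.12, and 0 passed limma's adjusted threshold (2 had an unadjusted p under 0.05), with 1 of the 14 that edgeR's quasi-likelihood test kept past it and 0 of the 21 to which DESeq2 gave an adjusted p. The most abundant of them did not pass the threshold: Mob1a, a cofactor of the Lats kinases, had a log2 fold change of 0.13 (SE 0.19), Frmd6 of 0.35 (SE 0.21) and Stk3, the kinase MST2, of 0.39 (SE 0.23). The gene that edgeR called was Llgl1, a cell polarity scaffold, which had 10.1, 14.3 and 19.4 CPM in the WT libraries and 6.19, 6.50 and 4.33 CPM in the CKO libraries. Its groups did not overlap, and its log2 fold change was -1.20 in limma (SE 0.36, adjusted p = 0.0802) and -1.36 in edgeR (adjusted p = 0.0497).

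Of the other TEAD genes and cofactors 5 of 6 were in the table and 4 were tested, 2 in each direction, with a median of 0.53. The median was 0.50 with 3 reads per library put in for a genotype at the floor. Of these genes 0 passed limma's adjusted threshold (1 at an unadjusted p under 0.05, Tead4, and 0 by DESeq2). The filter of edgeR kept only 2 of these 4 genes, neither Tead4 nor Vgll3, and called 0 of them. Tead4 had 5 reads over the WT libraries and 19 over the CKO libraries and was at the floor of 3 reads in each WT library. Its mean in CKO was 2.07 times that floor, a ratio that leaves out counting error. The 95% interval of its log2 fold change was 0.33 to 2.66, with an adjusted p of 0.131 in limma. Vgll3, a cofactor that competes for TEAD proteins, had 3, 2 and 3 reads in the WT libraries and 11, 3 and 11 in the CKO libraries, so that CKO 2 was at the floor like WT. Its log2 fold change was 1.12 (SE 0.52, 95% interval -0.03 to 2.26), with an adjusted p from limma of 0.246, and without CKO 2 the log2 fold change was 1.64 (limma's adjusted p = 0.0435). Vgll4, which represses TEAD activity and was the most abundant of these, had a log2 fold change of -0.39 (SE 0.27, limma's adjusted p = 0.441), and Tead3 had one of -0.05 (SE 0.42).

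In the list of other YAP and TEAD targets 19 of 21 genes were tested, of which 15 were positive and 4 negative, with a median of 0.61, and 2 passed limma's adjusted threshold, both higher, against 3.18% of all genes. Asap1, an Arf GTPase-activating protein, rose from 8.65 ± 1.87 to 20.8 ± 2.72 CPM (SD, n = 3 each, log2 fold change 1.18, limma's adjusted p = 0.0435). Nt5e, the ectonucleotidase CD73, rose from 132 ± 23.2 to 228 ± 41.0 CPM (SD, n = 3 each, log2 fold change 0.79, limma's adjusted p = 0.0421). These calls were close to the threshold, and Asap1 kept its call in 2 and Nt5e in 4 of 13 alternative settings.

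By the criterion of the study 4 targets were higher (background 5.3%) and 1 was lower (background 5.1%). Besides Asap1, the higher genes were F3, tissue factor, with means of 30.3 ± 13.7 and 57.3 ± 2.27 CPM (SD, n = 3 each, limma's adjusted p = 0.0929), the kinase Nuak2, whose log2 fold change was 1.15 with an adjusted p of 0.187 in limma, and Thbs1, thrombospondin 1, at 1.29 (limma's adjusted p = 0.230). The lower gene was Igfbp3, with 5, 3 and 6 reads in the WT libraries and 1, 1 and 0 in the CKO libraries (limma's adjusted p = 0.0813). It was thus at the floor in each CKO library and in WT 2. Its mean in WT was 1.603 times the floor of the CKO libraries, a ratio that leaves out counting error. Thbs1 had 316, 362 and 226 CPM in WT and 1400, 214 and 1270 CPM in CKO, and Ccdc80, a secreted matrix protein and the most abundant of the list, had 863, 963 and 737 CPM in WT and 3190, 299 and 3075 CPM in CKO. Both were several-fold above WT in CKO 1 and CKO 3 and below every WT library in CKO 2, the same library in which Wisp2 was lowest. Without CKO 2 the log2 fold change was 2.17 for Thbs1 (limma's adjusted p = 8.68e-05) and 1.88 for Ccdc80 (limma's adjusted p = 2.37e-05), against 1.29 and 0.75 with it. These p-values follow from leaving out the library that was low for both genes and do not test a difference. With any other library left out instead, the lowest adjusted p from limma was 0.336 for Thbs1 and 0.672 for Ccdc80. The other abundant targets were Tgfb2, a ligand of the TGF-beta family, at -0.38 (SE 0.34) and Axl, a receptor tyrosine kinase, at 0.57 (SE 0.26), neither past the threshold. The TEAD core was in the promoter windows of 5 of the 14 listed targets that had 1, Lats2, Axl, Crim1, Ptpn14 and Ajuba. Of all 27025 genes with a window, 16.6% held it.

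**Figure D5:**
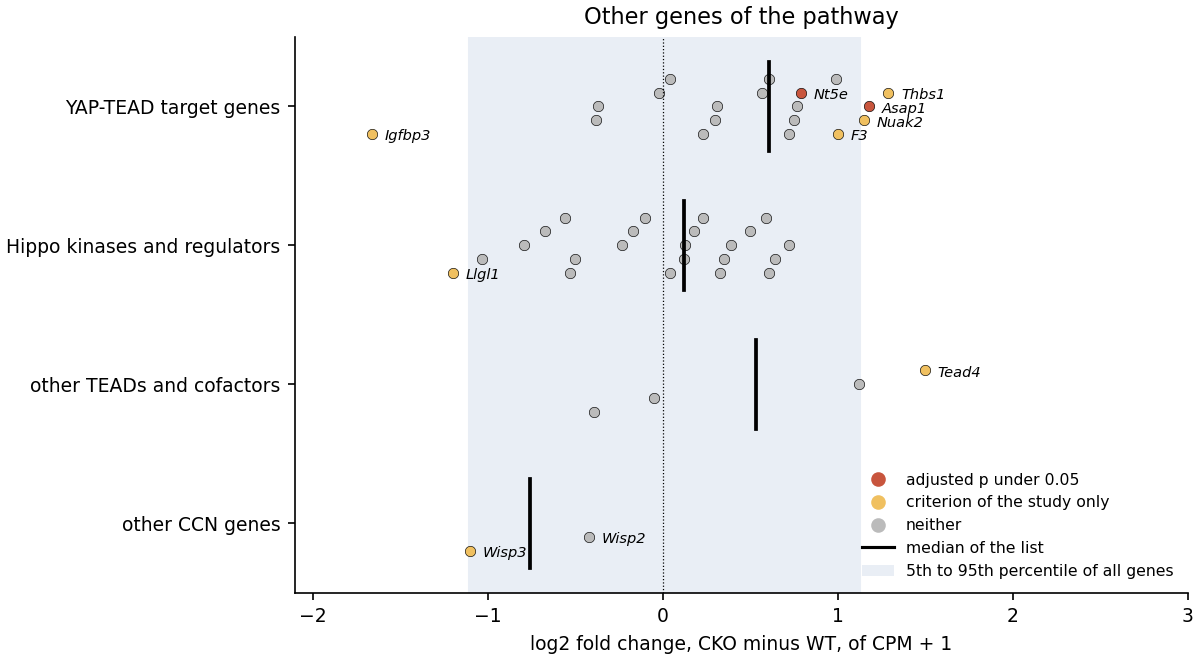
Log2 fold change (CKO minus WT, of CPM + 1, horizontal axis) of the tested genes in 4 lists of the pathway, 1 point per gene, with the list median as a black bar and the 5th to 95th percentile of all genes shaded. A gene on 2 lists is drawn on both, vertical offsets within a list have no meaning, and the genes past limma's adjusted threshold (red) are Asap1 and Nt5e, both among the targets, whose median is 0.61.

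Without CKO 2, the library that stood apart, 3 of the 9 tested genes passed limma's adjusted threshold, Cyr61 and Ctgf higher and Nov lower, when 10.8% of all genes did. The calls among the targets were then Nt5e, Thbs1 and Ccdc80, 3 of 19. Ctgf, Wisp2, Vgll3, Thbs1 and Ccdc80 passed in this fit alone, and CKO 2 was the lowest CKO library for each of them. Their p-values in this fit therefore describe the dependence on that library and do not test a difference.

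Markers of other cells moved with the genotype as well. Of 5 chondrocyte markers, Col2a1, Acan and Col9a1 fell (3 past limma's adjusted threshold, 0 higher). The summed level of 5 hypertrophic markers was 1437 to 4574 CPM in WT and 12380 to 15170 CPM in CKO, where Spp1 rose, Ihh did not exceed 3 reads in any library, and Mmp13, Ibsp and Col10a1 did not pass the threshold. Most of that sum was Spp1, and it does not show how CKO 2 differed: Mmp13 had 257, 260.4 and 650.5 CPM in WT and 2155, 377 and 2301 CPM in CKO, and Ibsp had 129, 82.5 and 109 CPM in WT and 708, 83.0 and 808 CPM in CKO. Both met the criterion of the study and lay within the WT range in CKO 2. Of 5 fibroblast and perichondrium markers 1 fell, Dcn, and of 5 macrophage and osteoclast markers, which summed to 99.3 to 107 CPM in WT and 172 to 190 CPM in CKO, Cd68 rose while Ptprc, the defining leukocyte gene, did not exceed 3 reads in any library. Smooth muscle markers summed to 85.5 to 150.4 CPM in WT and 123 to 204 CPM in CKO and osteoblast markers to 307 to 567 and 256 to 340 CPM, with 0 of 8 past limma's adjusted threshold (3 at an unadjusted p under 0.05, 0 of the 8 by DESeq2 and 0 by edgeR, which kept 3 of the 4 smooth muscle and 2 of the 4 osteoblast markers). Epidermal markers, 2 of 4 in the table, summed to 17.7 to 39.1 and 31.2 to 44.8 CPM, and red cell markers, 2 of 3, to at most 3.47 CPM in any library. The part of these cells in the levels of Cyr61, Ctgf, Nov and the targets was not tested.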

How the data were processed

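The libraries were made from total RNA with a stranded mRNA kit (VAHTS). Per the submitters' processing notes reads were handled with cutadapt 2.5, HISAT2 and featureCounts 1.6.3, while the genome build, the annotation and the strand setting are not given in the sources used here. The deposited table holds CPM values, which the authors computed from gene counts, for 15803 genes in 6 columns that sum to 1000000 each. All CPM values (100%) were whole multiples of what 1 read is worth, so whole reads were recovered. IDs were matched to GENCODE M21 (15212 of 15217 Ensembl IDs), which gave coordinates, exon lengths and overlaps.

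The 12155 genes that averaged 1 CPM or more were fitted on log2(CPM + 1) with limma 3.58.1 (R 4.3.3, mean-variance trend, 3 WT against 3 CKO, no covariate) with Benjamini-Hochberg adjustment over all of them. A fold change on this scale understates that of low genes. A level of 3 reads per library was taken as the floor. Alternatives were edgeR 4.0.16 (quasi-likelihood, 737 of 7704 genes called) and DESeq2 1.42.0 on the recovered reads, a pseudocount of 0.1, no filter, TMM scaling, no trend, a replicate block, the criterion of the study and each library left out. Intervals are 95% intervals, and those of single read counts cover counting error only. A search with blastn for copies (at least 90% identity over 300 bases) found none for the members except the antisense Gm15270 of Ctgf.

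Members and lists were chosen with earlier results of these data known. Named beside the 10 members are listed genes past the adjusted threshold or the study's criterion, up to 3 further genes per list with the highest mean CPM, and the 3 genes most correlated with each of the 2 members with the most reads among genes of at least 50 CPM. Lats2, Crim1, Ptpn14, Ajuba and the single markers were named after their values were seen. A gene of the target list is not reported here and was left out of its counts.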

Additional observations from a re-analysis of the deposited data

How the results depend on the processing

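Cyr61 passed the threshold in each of 13 alternatives, and Wisp1, Tead2, Yap1 and Amotl2 kept their direction and stayed short of it in each. The number of the 10 genes past the threshold was 1, and 2 with edgeR and by the criterion of the study, and it ranged from 1 to 3 when single libraries were left out. For the lists it was 0 to 1 (other CCN genes), 0 to 1 (other TEADs and cofactors) and 0 to 3 (targets) without single libraries, 1 with edgeR for Hippo regulators, and for the targets 0 with the replicate block, with TMM scaling and without the trend and 1 with a pseudocount of 0.1, with no filter and with DESeq2, against 2. Nov was -0.90 with edgeR. Left-out libraries moved Nov from -0.89 to -0.76, Ctgf from 0.89 to 1.76, Wwtr1 from -0.08 to 0.06, Tead1 from -0.55 to 0.12, Wisp2 from -1.12 to 0.89 and Tead3 from -0.27 to 0.28. Wwtr1 was negative without WT 3 and without CKO 2, Tead1 positive without CKO 1, Tead3 positive without WT 3 and without CKO 2, and Wisp2 positive without CKO 2. The targets' count was 0 without WT 1, WT 2, CKO 1 or CKO 3, 1 without WT 3, when F3 passed (1.31, limma's adjusted p = 0.0335), and 3 without CKO 2. Wwtr1 was -0.04 with TMM scaling, -0.03 with edgeR and -0.02 with DESeq2, and Wisp2 was 0.30 with edgeR and 0.33 with DESeq2. The cause of these changes was not tested, beyond the fewer libraries or genes of the fits concerned.

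The replicate numbers showed no sign of pairing: deviations from the group mean correlated at 0.0729, -0.208 and -0.155 for same-numbered libraries. Those of other-numbered libraries correlated at -0.183 to 0.209. With 3 libraries per group such correlations cannot exclude pairing by litter. With the replicate block the call of Cyr61 remained and those of Asap1 and Nt5e were lost, and 3.17% of all genes were called. Depth limits Yap1, Tead1, Tead2, Tead4, Wisp3, Vgll3, Llgl1, Nuak2 and Igfbp3, which rest on few reads per library, and Ankrd1 was at the floor. With 3 libraries per group outlying samples were not tested.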
